A study of Rattus norvegicus with 18 samples.

Results

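Genes that carry glucose across kidney tubule cells or make new glucose in them were followed by RNA-seq of rat kidney cortex, in the Zucker diabetic fatty (ZDF) strain. They were chosen by symbol: a list named 10 genes, and 9 of them (Slc5a1, Slc5a2, Slc2a1, Slc2a2, Slc2a4, Pck1, Pck2, Fbp1 and Pc) have a row under that symbol among the 18420 gene rows of the deposited table. The other listed gene, G6pc, the last enzyme of glucose production, is not analysed here. All 9 passed the filter on low values and were tested in 1 fit over 13988 genes.

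The 18 libraries fall into 3 groups of 6. The RYGB group, called bypass here, was diabetic ZDF fa/fa rats that had Roux-en-Y gastric bypass surgery, the disease group was diabetic ZDF fa/fa rats, and the healthy control group was lean non-diabetic ZDF fa/+ rats, which carry fa, a mutant leptin receptor allele, on 1 chromosome. The labels give no age, sex, sham operation or batch, and leave unsaid whether every library comes from its own animal. The p-values therefore rest on the spread among libraries, which may be technical. Bypass and disease differ by the surgery alone per the labels, whereas bypass and healthy control differ by genotype, diabetes and surgery together.

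The kidney filters glucose and takes it back in the proximal tubule. The cotransporter SGLT2 (Slc5a2) does most of this work in the early proximal tubule and SGLT1 (Slc5a1) takes up the remainder further down, both using the sodium gradient at the urinary side of the cell. Glucose then leaves towards the blood through GLUT2 (Slc2a2) in the early segments and GLUT1 (Slc2a1) in later ones. The same tubule cells also make glucose from lactate and amino acids, through pyruvate carboxylase (Pc), phosphoenolpyruvate carboxykinase (Pck1 in the cytosol, Pck2 in mitochondria), fructose-1,6-bisphosphatase (Fbp1) and glucose-6-phosphatase.

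Slc2a1 was higher in bypass than in disease libraries, and Pck1 was higher in bypass than in healthy control libraries. No other change of the 9 genes passed an adjusted p of 0.05, in 27 tests (9 genes, 3 comparisons). Between disease and healthy control libraries none of the 9 passed it, Slc5a2 included. Both calls were close to the threshold and were lost when single libraries were left out, as given with each gene. The upstream sequence of both genes is printed here because they carry these calls. Each is the 250 bases before the annotated start, 5′ to 3′ on the gene's own strand, from RefSeq (build GRCr8), with capitals marking the motifs found.
Pck1 (chr3:182348322-182348571, + strand): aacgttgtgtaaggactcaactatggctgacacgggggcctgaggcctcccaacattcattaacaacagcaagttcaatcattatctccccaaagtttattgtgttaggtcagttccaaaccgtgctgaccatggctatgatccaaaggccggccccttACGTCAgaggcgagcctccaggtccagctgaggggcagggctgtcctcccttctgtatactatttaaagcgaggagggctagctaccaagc
Slc2a1 (chr5:138002272-138002521, + strand): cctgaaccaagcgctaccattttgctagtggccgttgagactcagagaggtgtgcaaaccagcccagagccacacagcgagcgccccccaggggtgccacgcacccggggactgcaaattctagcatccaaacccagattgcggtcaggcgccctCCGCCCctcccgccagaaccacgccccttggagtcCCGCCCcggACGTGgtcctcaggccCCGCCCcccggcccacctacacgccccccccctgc
In both, 5 motifs were searched on both strands: ACGTCA (cAMP response element core), TGTTTAC (forkhead box), CCAAT (the box named by these letters), GGGCGG (GC box) and ACGTG (hypoxia response element core). In Pck1, ACGTCA lay at -91 from the start on the gene's strand. In Slc2a1, GGGCGG lay at -95, -60 and -35, each on the opposite strand and read as CCGCCC, and ACGTG lay at -51 on the gene's strand. None of these matches overlapped. Of 33465 promoters of the same length, 6.95% hold ACGTCA, 3.22% TGTTTAC, 34% CCAAT, 30.5% GGGCGG and 16.6% ACGTG. A match says that the letters are there and nothing about a bound factor.

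The libraries held 8116638 to 42713246 reads in genes, and values are normalised reads, the read count divided by the library's size factor (0.401 to 2.02). Early proximal tubule markers were plentiful in every library, with a summed level of 110835 to 297791 normalised reads over 10 genes, so the libraries hold the main cell type of the kidney cortex named in the labels. Replicate 4 of the healthy controls was unlike the other 5. In 126 genes the remaining 5 healthy controls did not overlap with the 12 fa/fa libraries. These genes were picked with replicate 4 left out, which by itself favours a shift of that library towards the fa/fa mean. No like count is given for the other healthy controls. In 94 of the 126 genes replicate 4 was nearer the fa/fa mean. On a scale from 0 at the mean of those 5 to 1 at the fa/fa mean, its median position was 0.942. Not every gene ran that way. Slco1a1, a late proximal tubule gene, was at 765 or more normalised reads in all healthy controls and at 503 or less in every fa/fa library. Replicate 4 was also the shallowest library. Whether the label of replicate 4 is right cannot be told from the files. This bears on every healthy control mean and test over 6 libraries, so the healthy control comparisons are also given without replicate 4.

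**Figure D1:**
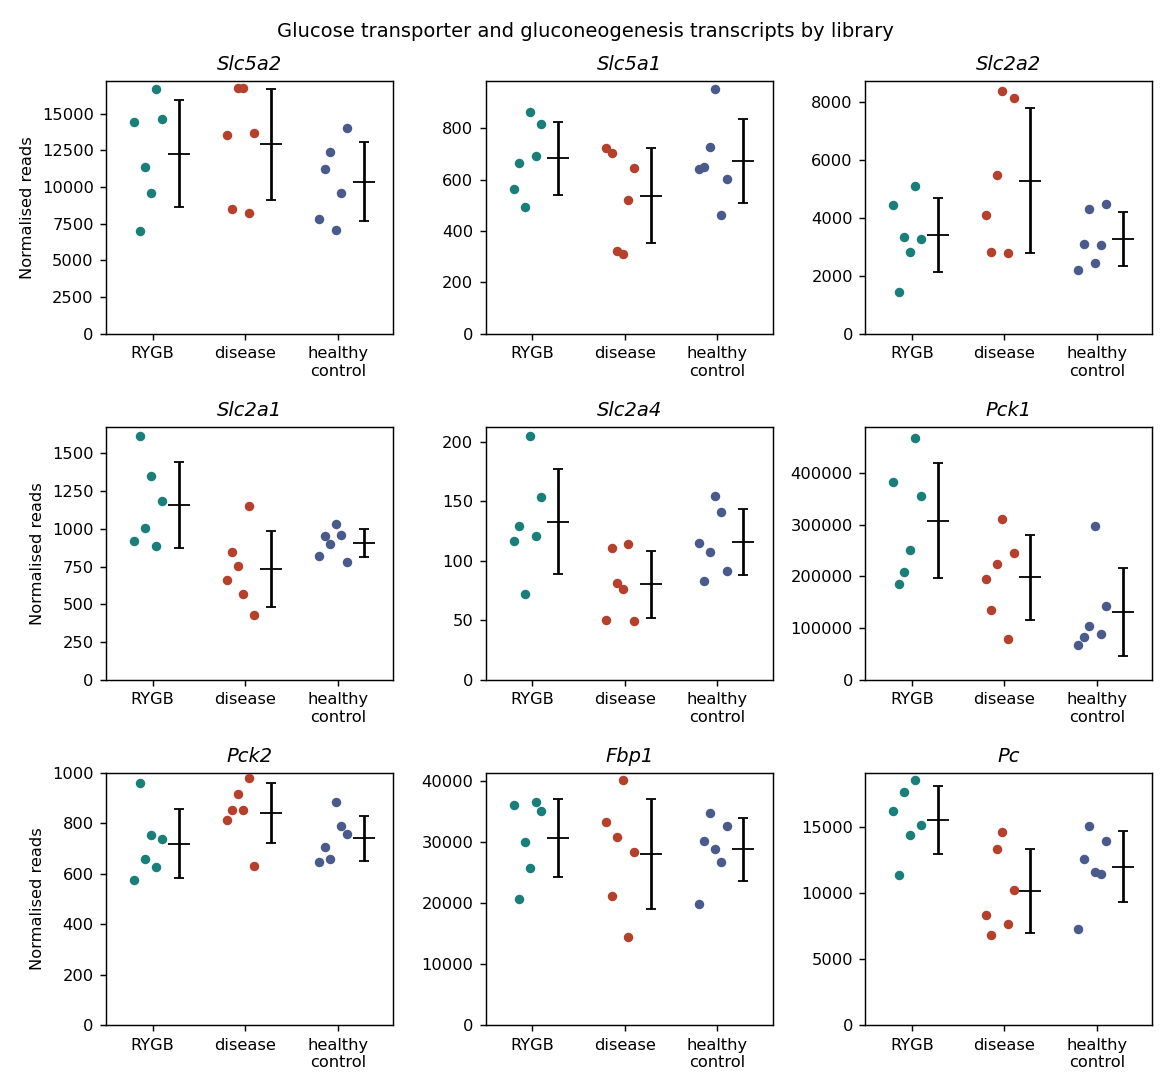
Normalised reads of each of the 9 genes (y axis, linear, from 0) in the RYGB, disease and healthy control libraries (points, 6 each), with the mean and SD of each group beside them. Slc2a1 sits at 884 to 1617 in bypass libraries against 429 to 1150.0 in disease libraries, and 1 healthy control library of Pck1 (298051) lies far above the other 5.

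Slc2a1 encodes GLUT1, the widely expressed carrier that also feeds glucose to glycolysis in the distal nephron. It had 884, 1093 and 1617 normalised reads in bypass libraries (lowest, median, highest), 429, 705 and 1150.0 in disease libraries, and 783, 926 and 1030.3 in healthy controls. All 6 bypass libraries lay above the disease median, although the groups overlapped through disease replicate 5, the highest disease library. The mean was 1159 ± 283 in bypass libraries, against 733 ± 249.8 in disease libraries (SD, n = 6 each), a ratio of 1.58. The log2 fold change was 0.69 ± 0.19 (SE), with a 95% interval of 0.30 to 1.09 and a limma adjusted p of 0.0424. Slc2a1 was the only one of the 9 called in this comparison, in which 3.95% of all genes tested were called and 1.84% were called higher. Bypass against healthy control gave 0.33 ± 0.19 (limma adjusted p = 0.269), and disease against healthy control -0.37 ± 0.19 (limma adjusted p = 0.488). The healthy control libraries were tight, at 907 ± 92.4, and lay between the other groups' means.

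Leaving out 1 library at a time took the limma adjusted p past 0.05 in 12 of 18 fits (0.0521 to 0.103), those without RYGB replicates 1, 2, 4 or 6, disease replicates 1, 2, 4 or 6, or healthy control replicates 2, 3, 5 or 6. Without disease replicate 5 it was 0.00854, and without healthy control replicate 4 it was 0.0405. The fold change stayed positive in all of these fits, from 0.55 to 0.84. Fitting the 2 groups alone gave an adjusted p of 0.0940, and quantile normalization 0.0575. Of 5 thick ascending limb markers tested, 3 rose in bypass against disease and 2 fell in disease against healthy control. Their summed level was 48101 to 123734 in bypass libraries, 25942 to 76098 in disease libraries and 76888 to 102539 in healthy controls. RYGB replicate 2, the highest bypass library for Slc2a1, had the highest thick ascending limb sum of its group, and disease replicate 5 likewise. Both were also the highest of their groups in the collecting duct and distal tubule sum (84957 and 105815) and in the adipocyte sum (1488 and 1347). Between groups the collecting duct and distal tubule sum ran against Slc2a1, with a median of 57885 in bypass and 81857 in disease libraries. That sum leans on Calb1, with a median of 28106 in bypass and 46367 in disease libraries. Of its 8 genes, 1 (Aqp3) was called lower in bypass against disease, and 2 had positive estimates. In bulk cortex, fewer cells of a type and less RNA per cell cannot be told apart, and the part of segment make-up in the Slc2a1 result was not tested.

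**Figure D2:**
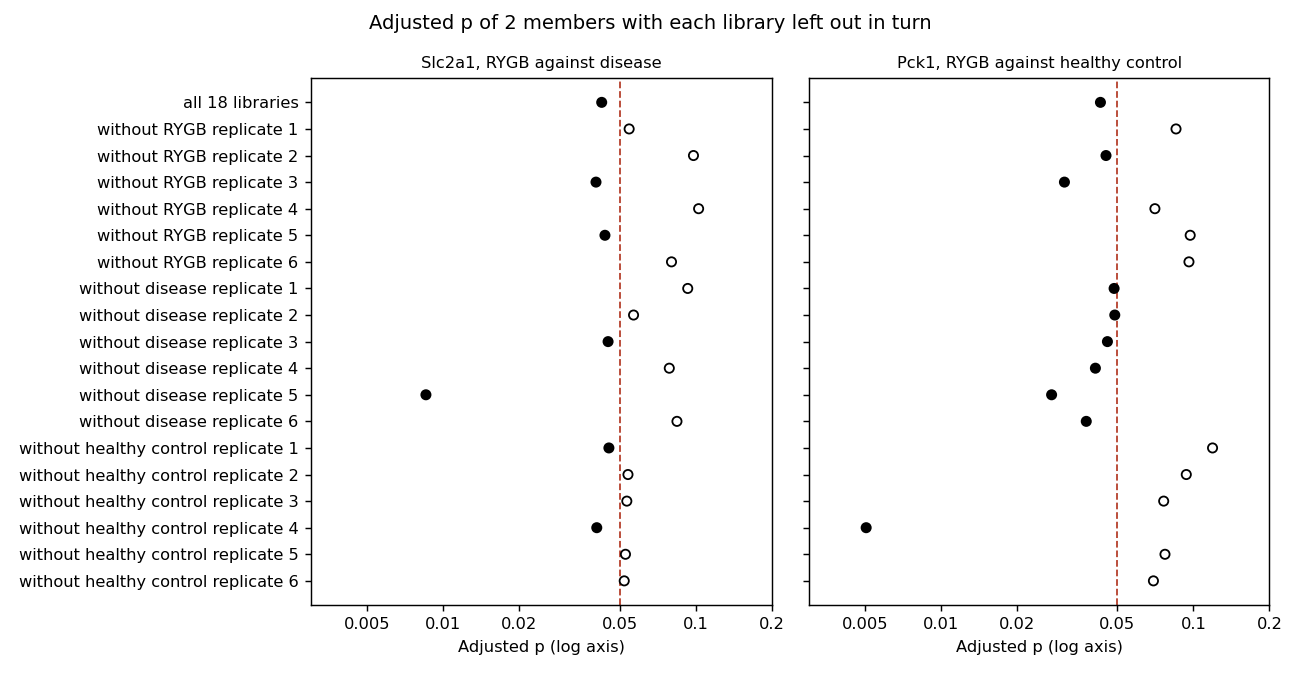
limma adjusted p (x axis, log scale) of Slc2a1 in bypass against disease and of Pck1 in bypass against healthy control, with all 18 libraries and with each left out in turn; filled points are below 0.05, marked by the dashed line. Open points number 12 for Slc2a1 and 9 for Pck1, and the lowest points are the fits without disease replicate 5 (0.00854) and without healthy control replicate 4 (0.00506).

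Slc2a2 encodes GLUT2, the exit carrier of early proximal tubule cells. It had 1435, 3323 and 5121 normalised reads in bypass libraries, 2809, 4799 and 8394 in disease libraries, and 2223, 3083 and 4476 in healthy controls. Disease replicates 3, 4 and 6 lay above every bypass and healthy control library, and the remaining 3 disease libraries lay within the range of both other groups. Its log2 fold change was -0.60 ± 0.31 in bypass against disease (limma adjusted p = 0.273) and 0.60 ± 0.31 in disease against healthy control (limma adjusted p = 0.488). Bypass and healthy control means were 3411 ± 1286 and 3271 ± 934, with a 95% interval of -0.64 to 0.65 for the log2 fold change.

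Slc5a2, the SGLT2 gene, was not called in any comparison. It had 6991, 12912 and 16691 normalised reads in bypass libraries, 8207, 13639 and 16743 in disease libraries, and 7094, 10406 and 14061 in healthy controls. The 3 groups overlapped over most of their range. Disease against healthy control gave 0.30 ± 0.23 (95% interval -0.18 to 0.78, limma adjusted p = 0.676). Bypass against disease gave -0.07 ± 0.23 (95% interval -0.56 to 0.41), and bypass against healthy control 0.23 ± 0.23 (95% interval -0.26 to 0.71). These intervals leave room for a change of either sign in each comparison. Of the 10 early proximal tubule markers tested, none was called in any comparison.

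Slc5a1, the SGLT1 gene, had 494, 680.2 and 862 normalised reads in bypass libraries, 311, 583 and 723 in disease libraries, and 461, 646 and 952 in healthy controls. Disease replicates 3 and 4 were the lowest of all 18, and the other 4 disease libraries lay among the rest. Bypass libraries had a log2 fold change of 0.40 ± 0.22 against disease (limma adjusted p = 0.299), and disease libraries one of -0.37 ± 0.22 against healthy control (limma adjusted p = 0.570). Bypass against healthy control gave 0.03 ± 0.22. Late proximal tubule markers, from the segment where SGLT1 works in the rat, were also counted: 6 of 9 fell in disease against healthy control and 2 of 9 rose in bypass against disease. Their summed level was 101731 to 193572 in bypass libraries, 63972 to 116118 in disease libraries and 148175 to 239991 in healthy controls, the disease libraries all lying below the healthy controls. The sum leans on Kap, which averaged 58046 in healthy controls and 5543 in disease libraries. In disease against healthy control 2 of the 9 estimates were positive, Acy3 among them (0.04, limma adjusted p = 0.978). The part of segment make-up in the Slc5a1 values was not tested.

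Slc2a4, the insulin-responsive carrier GLUT4 of muscle and fat, was low in the cortex, with 20 to 269 reads per library before scaling. It had 72.1, 125 and 205 normalised reads in bypass libraries, 49.2, 78.7 and 114 in disease libraries, and 83.3, 111 and 155 in healthy controls. Of the 6 bypass libraries 5 exceeded the disease median, and RYGB replicate 3 did not. Bypass against disease gave a log2 fold change of 0.73 ± 0.25 (limma adjusted p = 0.107), and without RYGB replicate 3 it was 0.89 with an adjusted p of 0.0362. The 17 other fits without 1 library gave no call (limma adjusted p 0.0542 to 0.237). Nor did the 11 other settings tried (adjusted p 0.05025 to 0.281 by limma, edgeR or DESeq2). Disease against healthy control gave -0.56 ± 0.25, with an unadjusted p of 0.0354 and an adjusted p of 0.391 (limma), where 11.1% of all genes tested had an unadjusted p below 0.05. Of 3 adipocyte markers tested of 6 listed, 1 (Adipoq) fell in bypass against disease, with a log2 fold change of -0.82 (limma adjusted p = 0.0289). Cidec, a fat droplet protein, had a positive estimate there, 1.51 (limma adjusted p = 0.0830), and Fabp4, a fatty acid binding protein, a negative one, -0.93 (limma adjusted p = 0.195). The summed level of the 6 markers was 521 to 1488 normalised reads in bypass libraries, 728 to 1347 in disease libraries and 693 to 1273 in healthy controls. Plin1, a coat protein of fat droplets, was at 0 to 3.00 in bypass libraries and at 0 in every disease and healthy control library. The part of fat tissue in the Slc2a4 values was not tested.

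Pck1 encodes the cytosolic phosphoenolpyruvate carboxykinase, a rate-setting enzyme of gluconeogenesis that fasting signals and acidosis are known to raise in kidney. It took 0.987 to 2.22% of all gene reads in bypass libraries, 0.459 to 1.45% in disease libraries and 0.360 to 1.497% in healthy controls. It had 184778, 302624 and 468115 normalised reads in bypass libraries, 77868, 209280.1 and 311233 in disease libraries, and 67218, 96694 and 298051 in healthy controls. The highest healthy control value was replicate 4, the library that stood apart, and the next was 142299. With replicate 4 left aside, every bypass library lay above every healthy control library. The share of all genes parted in this way is not given here. With all libraries, the mean was 307946 ± 111224 in bypass libraries, against 130713 ± 85844 in healthy controls (SD, n = 6 each), a ratio of 2.36. The log2 fold change was 1.35 ± 0.37 (95% interval 0.58 to 2.13, limma adjusted p = 0.0428). Pck1 was the only one of the 9 called in this comparison, in which 4.44% of all genes tested were called and 2.46% were called higher.

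Without healthy control replicate 4 the healthy controls averaged 97246 ± 28478 (SD, n = 5), the log2 fold change of bypass against healthy control was 1.63 and the limma adjusted p was 0.00506. Calls over all genes rose in that fit too, to 1506 of 13988 from 621 with all libraries, so the lower adjusted p is not particular to Pck1. Leaving out RYGB replicates 1, 4, 5 or 6 or healthy control replicates 1, 2, 3, 5 or 6 took the adjusted p past 0.05, to 0.0695 to 0.119, and with no filter on low values it was 0.0624. The fold change stayed positive in all these fits, from 1.20 to 1.63. The disease libraries lay between the other groups, and neither neighbour in that order was separated from them: bypass against disease gave 0.69 ± 0.37 (limma adjusted p = 0.295), and disease against healthy control 0.66 ± 0.37 (limma adjusted p = 0.538) or 0.94 without healthy control replicate 4 (limma adjusted p = 0.175). Alb, the defining marker of liver, another tissue rich in Pck1, was at 7.72 to 51.0 normalised reads in bypass libraries, 5.09 to 135 in disease libraries and 0 to 24.7 in healthy controls. Of 4 liver markers tested, 2 (Serpina1 and Apoc3) rose in bypass against healthy control, and 3 of the 4 estimates were positive. The negative one was Fgb (-0.19, limma adjusted p = 0.693). Fgb fell in bypass against disease (-1.50, limma adjusted p = 0.00661) and rose in disease against healthy control (1.31, limma adjusted p = 0.0238). The summed level of 7 liver markers was 638 to 980.1 in bypass libraries, 603 to 1122 in disease libraries and 351 to 677 in healthy controls, and its part in the Pck1 result was not tested.

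Pck2, the mitochondrial form of the enzyme, showed no such order. It had 577, 698 and 961 normalised reads in bypass libraries, 631, 853 and 980.4 in disease libraries, and 645, 733 and 883 in healthy controls. RYGB replicate 2, the highest of its group, lay in the upper disease range, and disease replicate 6, the lowest of its group, in the lower bypass range. Changes on the log2 scale were -0.23 ± 0.13 in bypass against disease (limma adjusted p = 0.301), 0.18 ± 0.13 in disease against healthy control (limma adjusted p = 0.648), and -0.05 ± 0.13 in bypass against healthy control (95% interval -0.32 to 0.21). These were the smallest standard errors of the 9 genes.

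Pc encodes pyruvate carboxylase, which turns pyruvate into oxaloacetate, the substrate of both carboxykinases. It had 11362, 15655 and 18513 normalised reads in bypass libraries, 6858, 9299.7 and 14586 in disease libraries, and 7279.7, 12066 and 15039.6 in healthy controls. All 6 bypass libraries lay above the disease median, and the groups overlapped because disease replicates 3 and 4 reached into the bypass range and RYGB replicates 2 and 4 into the disease range. The mean was 15534 ± 2553 in bypass libraries, against 10162 ± 3159 in disease libraries (SD, n = 6 each). The log2 fold change of 0.65 ± 0.20 had an unadjusted p of 0.00335 and an adjusted p of 0.0661 (limma), which missed the threshold. DESeq2 on the recovered reads called it, with an adjusted p of 0.0293, as did limma after quantile normalization (0.0362). So did limma without healthy control replicate 1 (0.0390), disease replicate 3 (0.0389) or disease replicate 4 (0.0307). The 9 other settings tried, edgeR included, left Pc uncalled (limma or edgeR adjusted p 0.0567 to 0.148). The 15 other fits without 1 library did too (limma adjusted p 0.0548 to 0.156). Bypass against healthy control gave 0.39 ± 0.20 (limma adjusted p = 0.205), and disease against healthy control -0.26 ± 0.20 (limma adjusted p = 0.669).

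Fbp1, the bisphosphatase that opposes phosphofructokinase, had the smallest log2 fold change of the 9 genes in disease against healthy control. It had 20603, 32495 and 36522 normalised reads in bypass libraries, 14537, 29612 and 40054 in disease libraries, and 19894, 29474 and 34690.5 in healthy controls. The disease libraries spanned the whole range of the other groups. The log2 fold change was 0.17 ± 0.22 in bypass against disease, 0.08 ± 0.22 in bypass against healthy control and -0.09 ± 0.22 in disease against healthy control, with limma adjusted p of 0.681, 0.828 and 0.923.

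**Figure D3:**
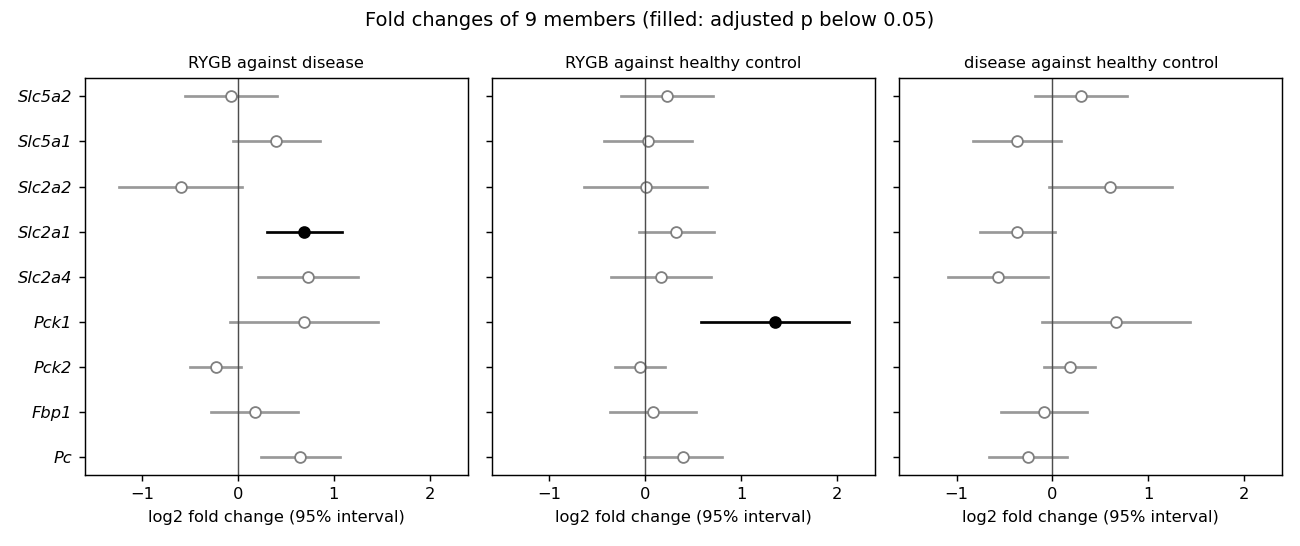
log2 fold change of the 9 genes (points) with the 95% interval (bars) in bypass against disease, bypass against healthy control and disease against healthy control; filled points passed a limma adjusted p of 0.05. The filled points are Slc2a1 at 0.69 in the first comparison and Pck1 at 1.35 in the second, and the third has none.

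Read as a group, 0 of the 9 genes were called in disease against healthy control, where 1.61% of all genes tested were called, with 1 unadjusted p below 0.05 (Slc2a4) by limma and 0 calls by DESeq2 or edgeR. The median log2 fold change of the 9 was 0.40 in bypass against disease, 0.17 in bypass against healthy control and -0.09 in disease against healthy control, with medians over all genes tested of -0.00087, -0.013 and 0.0016. In bypass against disease 6 of the 9 estimates were positive and 3 (Slc2a2, Slc5a2 and Pck2) were negative. No gene of the 9 had groups free of overlap in any comparison, a state that 2.6% of all genes tested reached in bypass against disease, 3.22% in bypass against healthy control and 1.24% in disease against healthy control. Without healthy control replicate 4, the limma adjusted p of the 9 genes was 0.175 to 0.892 in disease against healthy control, and that of the 8 genes other than Pck1 was 0.213 to 0.995 in bypass against healthy control. The comparisons share libraries, so their estimates are not independent of each other.

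Ratios of partner genes within a library do not depend on how libraries were scaled. They carry no correction for transcript length, so only their differences between groups are read. The log2 ratio of Pck1 over Pck2 was 7.59 to 9.54 in bypass libraries, 6.31 to 8.59 in disease libraries and 6.70 to 8.397 in healthy controls. The difference of bypass minus healthy control was 1.41 on the log2 scale (exact two-sided permutation p = 0.0108, adjusted p = 0.0974 over 9 tests), and 1.63 without healthy control replicate 4. The difference of bypass minus disease was 0.92 (exact permutation p = 0.0736, adjusted p = 0.1997).

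The log2 ratio of the exit carriers, Slc2a1 over Slc2a2, was -2.53 to 0.17 in bypass libraries, -4.25 to -1.29 in disease libraries and -2.51 to -1.25 in healthy controls. The difference of bypass minus disease was 1.29 (exact permutation p = 0.0649, adjusted p = 0.1997), and that of disease minus healthy control -0.97 (exact permutation p = 0.0887, adjusted p = 0.1997). Without disease replicate 5, the disease library with the highest ratio, the second difference was -1.27 (exact permutation p = 0.0195, not adjusted). Removing the library that ran most against the difference was bound to widen it. No other fit without 1 library gave a larger fall. The ratio of the entry carriers, Slc5a1 over Slc5a2, was -4.67 to -3.39 in bypass libraries, -5.74 to -3.59 in disease libraries and -4.55 to -2.90 in healthy controls, with differences of 0.47 for bypass minus disease, -0.20 for bypass minus healthy control and -0.67 for disease minus healthy control (exact permutation p = 0.307, 0.563 and 0.184). None of the 9 ratio tests passed an adjusted p of 0.05; the smallest p that 6 against 6 libraries allow is 0.00217.

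**Figure D4:**
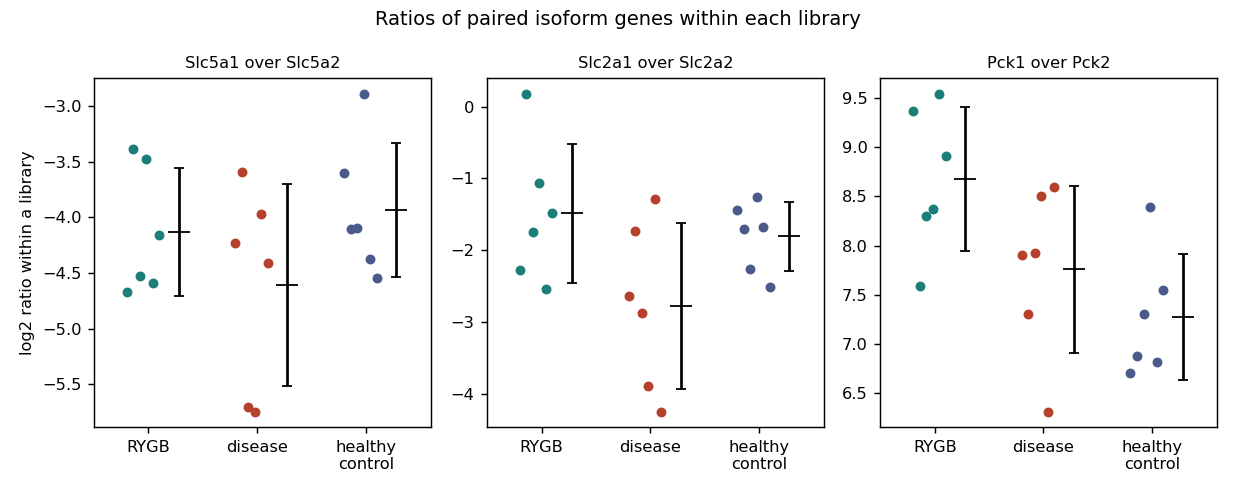
log2 ratio within each library (y axis) of Slc5a1 over Slc5a2, Slc2a1 over Slc2a2 and Pck1 over Pck2 in the RYGB, disease and healthy control libraries (points), with group mean and SD. Pck1 over Pck2 spans 7.59 to 9.54 in bypass libraries and 6.70 to 8.397 in healthy controls, and the Slc2a1 over Slc2a2 panel shows the widest spread in the disease group.

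Inside the groups, Slc5a2, Slc2a2, Fbp1 and Pc deviated together, with an adjusted p below 0.05 for all 6 of their pairs, and Slc2a1 deviated against Slc5a2, Slc2a2 and Fbp1. After each group's mean was removed, 36 pairs were compared over the 18 libraries, and 14 had an adjusted p below 0.05 for Pearson's r (permutation within groups, 100000 draws), 10 of them positive and 4 negative. The 2 genes of a pair share their library, its depth and its size factor. The share of all gene pairs that pass the same permutation test is not given here. The count of 14 is therefore not shown to be particular to the genes followed here. Slc5a2 and Slc2a2, the entry and exit carriers of the early proximal tubule, deviated together, with r = 0.896 and rho = 0.868 (permutation p = 1e-05, the smallest the draws can give, and 2e-05; adjusted 0.00036 and 0.00072), and r = 0.835 without the 2 libraries farthest from the median. Slc5a2 also deviated with Fbp1 (r = 0.865, rho = 0.816, permutation p = 5e-05 and 0.00031, adjusted 0.0006 and 0.00216) and with Pc (r = 0.802, rho = 0.829, permutation p = 0.00012 and 0.00015, adjusted 0.00072 and 0.0018), with r = 0.821 and 0.756 without the 2 farthest libraries.

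Slc2a1 deviated against Slc2a2, with r = -0.831 and rho = -0.835 (permutation p = 0.00015 and 0.00036, adjusted 0.000771 and 0.00216), and r = -0.812 without the 2 farthest libraries. Slc2a1 deviated together with Pck2, with r = 0.825 and rho = 0.80 (permutation p = 9e-05 and 0.00028, adjusted 0.00072 and 0.00216), and r = 0.771 without the 2 farthest. Pck1 deviated with Fbp1 (r = 0.750, rho = 0.717, permutation p = 0.00065 and 0.00235, adjusted 0.0026 and 0.0106, r = 0.832 without the 2 farthest libraries), and not detectably with Pck2 (r = -0.158, rho = -0.168, permutation p = 0.538 and 0.525, adjusted 0.605 and 0.573, r = -0.305 without the 2 farthest). Slc5a1 had no pair past an adjusted p of 0.05.

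RYGB replicate 2 was the lowest of its group in Slc5a2, Slc2a2, Pck1, Fbp1 and Pc and the highest in Slc2a1 and Pck2, while RYGB replicate 5 was the highest in the same 5 genes and the lowest in Slc2a1. Disease replicate 5 was the lowest in Slc5a2, Slc2a2, Pck1 and Fbp1 and the highest in Slc2a1, Slc2a4 and Pck2. The early proximal tubule sum was 168903 in RYGB replicate 2 and 297791 in RYGB replicate 5, the ends of that group, and 114485 in disease replicate 5, where the group spanned 111879 to 247834. The thick ascending limb sum ran the other way, at 123734 in RYGB replicate 2, 48101 in RYGB replicate 5 and 76098 in disease replicate 5. In the same libraries the collecting duct and distal tubule sum was 84957, 48203 and 105815. The part of segment make-up in these deviations was not tested.

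**Figure D5:**
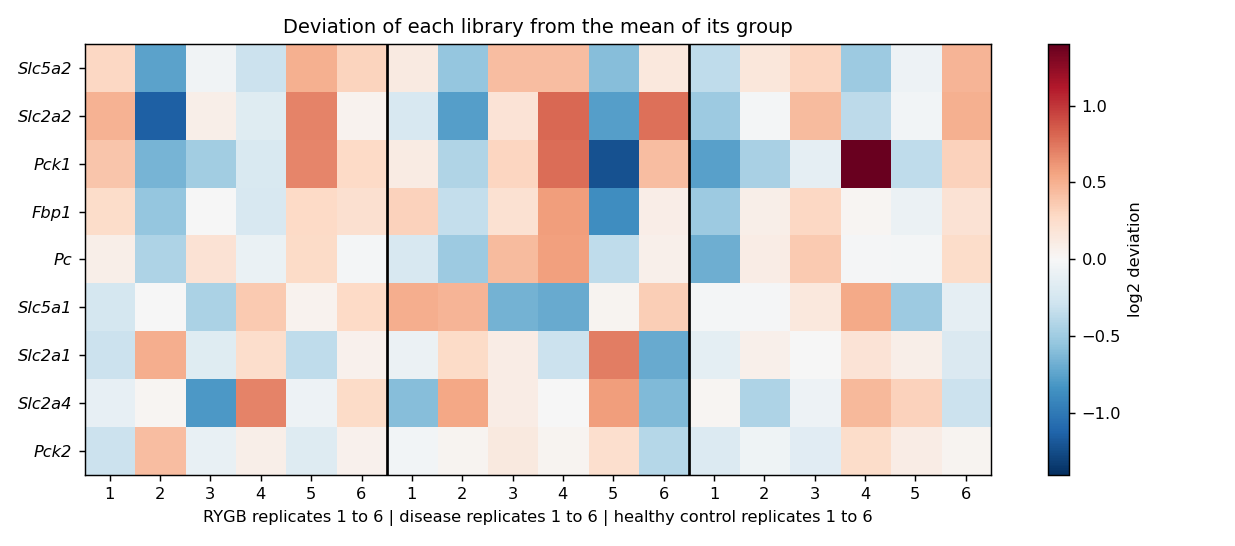
log2 deviation of each of the 18 libraries (columns) from the mean of its group for the 9 genes (rows); red is above and blue below the group mean. The upper 5 rows (Slc5a2, Slc2a2, Pck1, Fbp1, Pc) are blue in RYGB replicate 2 and disease replicate 5, where Slc2a1 and Pck2 are red, and healthy control replicate 4 is darkest red for Pck1.

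The genes whose profile over the 18 libraries was most like that of the 2 called genes were found by the mean absolute difference of centred log2 values. For Slc2a1 they were Pou3f3 (0.0927), Pkdcc (0.116) and Igfbp2 (0.149), where the mean absolute deviation of Slc2a1 itself was 0.313 and the median difference over all genes was 0.404. For Pck1 they were Prodh1 (0.282), Rarres2 (0.308) and Cyp4a1 (0.316), where Pck1's own deviation was 0.710 and the median over all genes was 0.755. Prodh1 had log2 fold changes of 0.75 in bypass against disease, 1.30 in bypass against healthy control and 0.55 in disease against healthy control. Those of Pou3f3 were 0.59, 0.35 and -0.23 in the same order.

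Of 10 other sugar carriers tested of 14 listed, none was called in any comparison, with a lowest limma adjusted p of 0.0501. Slc5a10, a sodium-coupled carrier of mannose and fructose, averaged 2285 ± 1441 in bypass libraries, 1109 ± 602 in disease libraries and 1811 ± 577 in healthy controls (SD, n = 6 each), with 0.92 ± 0.39 in bypass against disease (limma adjusted p = 0.186). Slc2a5, the fructose carrier GLUT5, averaged 1845 ± 590.0 in bypass libraries, 1164 ± 271 in disease libraries and 1336 ± 336 in healthy controls, with 0.63 ± 0.20 in bypass against disease (limma adjusted p = 0.0830).

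Of 6 partners and regulators of the sodium-glucose cotransporters tested of 7 listed, none was called, with a lowest limma adjusted p of 0.553 in bypass against disease. Atp1b1, the beta subunit of the sodium-potassium ATPase, averaged 112219 ± 7862 in bypass libraries, 115735 ± 6454 in disease libraries and 113854 ± 9819.9 in healthy controls (SD, n = 6 each), with -0.05 ± 0.14 in bypass against disease (limma adjusted p = 0.880).

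Of 17 other steps of the gluconeogenic route tested of 21 listed, none was called in bypass against disease or in disease against healthy control, and 2 rose and 1 fell in bypass against healthy control. Ldha, a subunit of lactate dehydrogenase, averaged 5678 ± 510 in bypass libraries, against 4463 ± 307 in healthy controls (SD, n = 6 each), with 0.35 ± 0.09 and a limma adjusted p of 0.0357. Slc25a10, the mitochondrial dicarboxylate carrier, averaged 12986 ± 2593 in bypass libraries, against 7206.6 ± 1857 in healthy controls, with 0.88 ± 0.23 and a limma adjusted p of 0.0370. For both genes, all bypass libraries lay above all healthy control libraries. Mpc1, a subunit of the mitochondrial pyruvate carrier, averaged 9100.6 ± 529.7 in bypass libraries, against 12616 ± 2098 in healthy controls, with -0.45 ± 0.13 and a limma adjusted p of 0.0445. The median log2 fold change of the list was 0.13 in that comparison, against -0.013 over all genes tested. Leaving out 1 library lost the call of Ldha in 10 of 18 fits (limma adjusted p 0.0515 to 0.0964), of Slc25a10 in 9 (0.0594 to 0.0993) and of Mpc1 in 11 (0.0506 to 0.112). These were the fits without RYGB replicates 1, 2, 4, 5 or 6 or healthy control replicates 1, 2, 3, 5 or 6, except that Slc25a10 kept its call without healthy control replicate 5, and for Mpc1 also the fit without disease replicate 2.

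Among 13 tested genes of 17 listed that drive or restrain glucose uptake and breakdown, Hk3 rose in both bypass comparisons. It kept both calls without any 1 library. Hk3, a hexokinase known from white blood cells, averaged 99.8 ± 46.4 in bypass libraries, 37.0 ± 8.06 in disease libraries and 30.9 ± 7.40 in healthy controls (SD, n = 6 each). Its log2 fold change was 1.30 ± 0.27 in bypass against disease (limma adjusted p = 0.0118) and 1.57 ± 0.27 in bypass against healthy control (limma adjusted p = 0.00327). Pfkl, the liver-type phosphofructokinase, rose in bypass against healthy control, at 2310.2 ± 154 in bypass libraries against 1779.9 ± 316 in healthy controls, with 0.39 ± 0.10 and a limma adjusted p of 0.0400. It lost that call in 10 of 18 fits without 1 library (0.0703 to 0.0997): those without RYGB replicates 1, 2, 4, 5 or 6 or healthy control replicates 1, 2, 3, 5 or 6. No gene of this list was called in disease against healthy control.

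Of 13 regulators of gluconeogenic transcription tested of 18 listed, none was called, with a lowest limma adjusted p of 0.0504 in bypass against disease, 0.132 in bypass against healthy control and 0.226 in disease against healthy control. In bypass against disease 9 of the 13 estimates were positive. The median log2 fold change of this list was 0.34 in bypass against disease, -0.05 in bypass against healthy control and -0.24 in disease against healthy control, against medians over all genes tested of -0.00087, -0.013 and 0.0016.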

How the data were processed

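RNA of rat kidney cortex was made into libraries with a stranded mRNA kit, per the labels' protocols. The authors' deposited signal values are gene read counts divided by size factors, in 1 table of 18420 gene rows and 3 rows that name no gene and stayed out of all sums and tests. These rows hold unassigned reads, 27.6 to 43.2% with no feature, 13.5 to 18.1% not uniquely aligned and 0.0695 to 0.114% ambiguous, as percent of a library's gene reads plus these rows. Per the submitters' processing notes, the build was Rnor 5.0 and the tools included HTSeq 0.6.1p1 and DESeq2, with FastQC 0.11.2 and MultiQC 0.9 for quality. Neither aligner nor annotation is given in the sources used here.

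Values are whole multiples of 1 read within 0.01 reads for at least 99.9946% of values per library, so whole reads were recovered; libraries hold 8116638 to 42713246. Libraries of a group all differed beyond sampling noise (chi-square over its degrees of freedom at least 21.43). log2(value + 1) was fitted with limma 3.58.1 under R 4.3.3 (trended prior variance, 3 group means, all 18 libraries) for the 13988 genes that reached 10 in 6 or more libraries, with Benjamini-Hochberg adjustment over all of them and calls at 0.05. Fold changes are on that scale and understate changes of low genes. On those whole reads, edgeR 4.0.16 (quasi-likelihood) and DESeq2 1.42.0 called 629 and 1098 genes in RYGB against disease, 846 and 1602 in RYGB against healthy control and 224 and 410 in disease against healthy control; limma called 552, 621 and 225. The code was tested on simulated data.

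The members and the 17 further gene and marker lists were chosen with earlier results of these data known. Of 182 listed symbols 149 were found; results of some further genes are not reported here. From the 5 pathway lists, the genes named are those called in any comparison, otherwise the 2 of highest mean, less any not reported here; the 3 nearest profiles of each called member are also named. Genes named from the marker lists were picked after their values were seen. Within-group correlations and ratios used permutation of libraries. Same-numbered healthy control and disease libraries deviated together (r of 0.131 to 0.325 over genes, all 6 pairs over 0.1), which the labels do not explain. Other group pairs did not. Most healthy control libraries correlated better with a disease library of another number, so the link is not shown to be particular to the number. Promoters came from RefSeq build GRCr8, which is not the authors' build, for 8 members. Alternatives were other filters, pseudocounts, scalings, tools, a replicate block and each library left out.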

Additional observations from a re-analysis of the deposited data

Results flagged for a closer look

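In groups of 6 libraries, a library was singled out where its gap to the nearest other exceeded Dixon's 95% critical share of the group's range. Chance flags about 1 in 20 groups, and 4 of the 60 groups searched (members, named pathway genes and the within-library ratios) were past that limit. Pck1 in healthy control replicate 4 was 298051 normalised reads, above the other 5 healthy controls at 67218 to 142299. Pfkl in the same library was 2397 normalised reads, also the highest of its group. Slc5a10 in disease replicate 5 was 2249 normalised reads, the highest of the disease libraries. Atp1b1 in disease replicate 3 was 102941 normalised reads, the lowest of the disease libraries.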

How the results depend on the processing

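Of 783 values of the 27 gene results (9 genes, 3 comparisons, 29 alternatives), 731 kept their sign and side of the threshold, 27 lost the call, 6 gained one and 19 changed sign, all of these for estimates near 0. With DESeq2 the genes called were 1098 in RYGB against disease, 1602 in RYGB against healthy control and 410 in disease against healthy control, and 2 of the 9 genes (Slc2a1 and Pc) were called in RYGB against disease. A minimum value of 50 gave 143 genes in disease against healthy control, and the 2 groups fitted alone gave 1442 in RYGB against healthy control and 0 of the 9 in RYGB against disease. With no filter on low values 0 of the 9 were called in RYGB against healthy control. Quantile normalization gave -0.0047 for Slc2a2 in RYGB against healthy control. The cause was not tested.

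With the replicate block over 18 libraries 408, 496 and 158 genes were called in the same 3 comparisons, and 0 of the 9 in RYGB against disease (Slc2a1 adjusted p = 0.0523). The replicate block within the 2 groups compared, added after seeing the data, called 136 genes and 0 of the 9 in RYGB against disease (Slc2a1 adjusted p = 0.1999), 0 of the 9 in RYGB against healthy control (Pck1 adjusted p = 0.0624) and 252 genes in disease against healthy control, where the numbers deviated together, with 0 of the 9 called. Paired by number, the Pck1 over Pck2 ratio of RYGB minus healthy control was 1.41 (exact sign-flip p = 0.0625). The block also ended the calls of Ldha and Mpc1, and fitted within the 2 groups also those of Slc25a10, Pfkl and, in RYGB against disease, Hk3 (adjusted p = 0.0769). In no group pair did every library correlate best with its own number.

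Leaving out 1 library at a time gave 261 to 819 genes in RYGB against disease (0 to 2 of the 9), 209 to 1506 in RYGB against healthy control (0 to 1 of the 9) and 126 to 312 in disease against healthy control. Log2 fold changes that changed sign ranged, in RYGB against healthy control, from -0.13 to 0.23 (Slc2a2), -0.021 to 0.19 (Fbp1), -0.072 to 0.14 (Slc5a1) and -0.14 to 0.0057 (Pck2), in RYGB against disease from -0.19 to 0.078 (Slc5a2) and -0.0020 to 0.29 (Fbp1), and in disease against healthy control from -0.21 to 0.084 (Fbp1). Ratio differences ranged from -0.35 to 0.011 (Slc5a1 over Slc5a2) and -0.0095 to 0.53 (Slc2a1 over Slc2a2) in RYGB against healthy control. Those of Slc2a1 over Slc2a2 ranged from 0.96 to 1.59 in RYGB against disease and -1.27 to -0.68 in disease against healthy control, and Pck1 over Pck2 from 0.63 to 1.14 in RYGB against disease, with some exact permutation p under 0.05. Slc2a4 has few reads, 20 in the lowest library, and its values are limited by depth.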

Other observations

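The remaining marker lists, set beside the 9 genes, gave these counts by limma adjusted p. Of 9 tubular injury genes tested, 1 rose and 3 fell in RYGB against disease, 2 rose in RYGB against healthy control, and 5 rose and 1 fell in disease against healthy control. Their summed level over 10 genes was 15435 to 18274 normalised reads in RYGB libraries, 23796 to 49076 in disease libraries and 11238 to 18690.0 in healthy controls. Havcr1, the kidney injury molecule of damaged tubules, was at 15.3 to 92.2 normalised reads in RYGB libraries, 401 to 3065 in disease libraries and 7.56 to 269.8 in healthy controls. The injury sum did not overlap between disease libraries and either other group, while all 9 glucose genes overlapped between groups in every comparison. That sum leans on Spp1, which averaged 22335 in disease libraries, 4800 in RYGB libraries and 3766 in healthy controls.

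Of 8 collecting duct and distal tubule genes, 1 (Aqp3) fell in RYGB against disease and none was called in the other comparisons. Their summed level was 38824 to 84957 normalised reads in RYGB libraries, 58898 to 105815 in disease libraries and 40135 to 80420.3 in healthy controls. Of 7 endothelial genes, 2 fell in RYGB against healthy control and 1 in disease against healthy control. Of 2 red cell genes in the table, Alas2 rose in RYGB against healthy control, at 371 to 952 normalised reads in RYGB libraries against 2.45 to 283 in healthy controls. Of 2 muscle genes tested and of 4 smooth muscle genes tested, 1 each fell in RYGB against disease and rose in disease against healthy control. In the late proximal tubule list, 1 of 9 rose and 2 fell in RYGB against healthy control. The 1 intestinal gene tested was not called.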
